A study of Bos indicus and Bos taurus with 17 samples.

Results

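MHC class II molecules hold peptides on the surface of antigen-presenting cells for recognition by helper T cells, and macrophages, dendritic cells and B cells are their usual carriers. The invariant chain CD74 escorts newly made class II molecules to the endosome, and CIITA is the master activator of class II transcription. Macrophages are a regular part of the cells found in milk, where they take up debris and microbes and present antigen.

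The genes described here are 10 class II and macrophage genes, namely CD74, CIITA, BOLA-DRA, CD68, CD14, CD163, MRC1, CSF1R, APOE and C1QA. They were chosen by name, as a list whose difference between Kashmiri and Jersey cows was lost at day 250 in milk (D250), so the breed ratios below are a description of what chose them. Of the 10 names, 9 were found among 21631 distinct gene names in a table of 61264 entries. BOLA-DRA was not among the names, and an entry named BoLA DR-ALPHA is given beside the others without being counted.

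RNA was sequenced from cells captured from the milk of Kashmiri and Jersey cows with beads carrying an antibody to the epithelial keratin KRT18. Milk was taken at D15, D90 and D250, labelled as lactation stages 1, 2 and 3. Every sample of a stage carries the same month (March, July or December), so the stage and the season cannot be told apart. The labels name 17 samples from cows in lactation number 2 or 3, 3 for each breed and day but 2 for Jersey at D90. Lactation number was not balanced between the groups. Kashmiri at D90 and Jersey at D250 hold number 2 only, and the other groups hold both. By the study's methods all cows were in lactation 3, unlike these labels. The study's methods describe the same cows on each day, while the lactation numbers in the labels differ between days, so the labels do not tie samples to cows. No treatment is given. Expression is given in FPKM, the fragments counted for a gene relative to its transcript length and to all fragments mapped, as computed by the authors, with 1 value for each of the 6 groups. There was therefore no spread between cows, no error and no test for any value, and 1 cow could carry a group value. The number of reads behind each group value is not in the files used here, and the library read totals given by the study were not used.

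The study checked purity by qPCR at D90. It reported KRT18 and CSN2 as higher, and LSP1, HBA and CD18 (ITGB2) as lower, in captured cells than in all milk cells. The values here hold no uncaptured milk cells, so that comparison could not be repeated. The cell type on the labels was checked against 11 epithelial markers. Their summed FPKM was 7712, 1003 and 4135 in Kashmiri cows at D15, D90 and D250, and 3072, 293 and 2368 in Jersey cows. KRT18, the capture target, was lowest in Jersey at D90 (1.59 FPKM) and highest in Kashmiri at D15 (51.3 FPKM), while KRT19 had 38.2 to 3195 FPKM, XDH 205 to 1953 FPKM and ELF5 12.6 to 1799 FPKM. Leukocyte genes were present in all 6 groups. PTPRC, the pan-leukocyte antigen CD45, had 60.0 to 320.2 FPKM, LSP1 68.6 to 334 FPKM and ITGB2 46.5 to 179 FPKM. In bulk RNA, fewer cells of a type and less RNA per cell cannot be told apart. The 3 red blood cell genes found were all under 1 FPKM.

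CD74 was among the most abundant of the genes, at 240.5, 1533 and 1319.9 FPKM in Kashmiri cows at D15, D90 and D250. Jersey cows had 2336, 3391 and 3165 FPKM on the same days. All 3 Jersey values were above all 3 Kashmiri values, and Jersey over Kashmiri the ratios were 9.72, 2.21 and 2.40. CIITA was low throughout, with 2.34, 3.29 and 3.43 FPKM in Kashmiri cows and 7.15, 3.13 and 2.97 FPKM in Jersey cows. It stood apart in Jersey at D15 only, where it was 3.05-fold the Kashmiri value, and the breeds overlapped at the later days (0.952-fold at D90 and 0.867-fold at D250). The FPKM of CIITA divided by that of CD74 was 0.00973 in Kashmiri at D15 and 0.000924 in Jersey at D90, the highest and the lowest of the 6 groups.

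CD68, a lysosomal glycoprotein of macrophages, had the widest range of the 8 genes with no listed 0. It was at 11.4, 281 and 268 FPKM in Kashmiri cows and at 169, 1211 and 996 FPKM in Jersey cows at D15, D90 and D250, a span of 106-fold. Within each breed D15 was the lowest day, and the Jersey level was 14.8-fold, 4.31-fold and 3.71-fold the Kashmiri level. CD14, the co-receptor for bacterial lipopolysaccharide, had 51.8, 69.5 and 68.3 FPKM in Kashmiri cows. In Jersey cows it had 329.7, 536 and 636 FPKM. The ratios between breeds for D15, D90 and D250 were 6.37, 7.71 and 9.31, the largest at D250. That order held on the deposited scale only, since the log2 ratios of CD14 were 3.05, 3.28 and 2.42 with equal sums and 2.53, 2.79 and 2.70 with the upper quartile scaling.

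CD163, the scavenger receptor for haemoglobin bound to haptoglobin, had 2.73, 9.03 and 15.9 FPKM in Kashmiri cows and 30.5, 37.1 and 57.7 FPKM in Jersey cows. Its level was higher at each later day in both breeds. The Jersey level was 11.2-fold, 4.11-fold and 3.64-fold the Kashmiri level. CSF1R, the receptor for the macrophage growth factor CSF1, had 3.90, 18.9 and 31.5 FPKM in Kashmiri cows and 68.5, 130.2 and 106 FPKM in Jersey cows. The lowest Jersey value was above the highest Kashmiri value, and the ratio between breeds was 17.6, 6.89 and 3.36 at D15, D90 and D250. MRC1, the mannose receptor, was as low as CIITA, with a mean over the groups of 4.04 FPKM against 3.72 FPKM. It had 0.285, 0.968 and 3.93 FPKM in Kashmiri cows and 1.57, 13.2 and 4.29 FPKM in Jersey cows. Jersey at D90 stood apart, where MRC1 was 13.6-fold the Kashmiri value, compared with 5.52-fold at D15 and 1.09-fold at D250.

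C1QA, a chain of the complement recognition molecule C1q that macrophages make, followed another order. It had 6.73, 31.3 and 24.2 FPKM in Kashmiri cows and 145, 60.3 and 12.01 FPKM in Jersey cows at D15, D90 and D250. In Jersey cows it was lower at each later day, and its ratio between breeds went from 21.6-fold at D15 to 1.93-fold at D90 and 0.496-fold at D250. APOE, a lipid-carrying apolipoprotein that macrophages secrete, had 463, 1764 and 1574 FPKM in Kashmiri cows. In Jersey cows it was listed at 0 at D15, with 4414 FPKM on D90 and 639.9 FPKM on D250. No ratio is given for D15. The Jersey level was 2.50-fold the Kashmiri level at D90 and 0.407-fold at D250. A listed 0 was also found in other abundant genes, since 38 of the 557 names with at least 400 FPKM in some group (6.82%) were at 0 in another, so a 0 here may be a failed estimate.

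**Figure D1:**
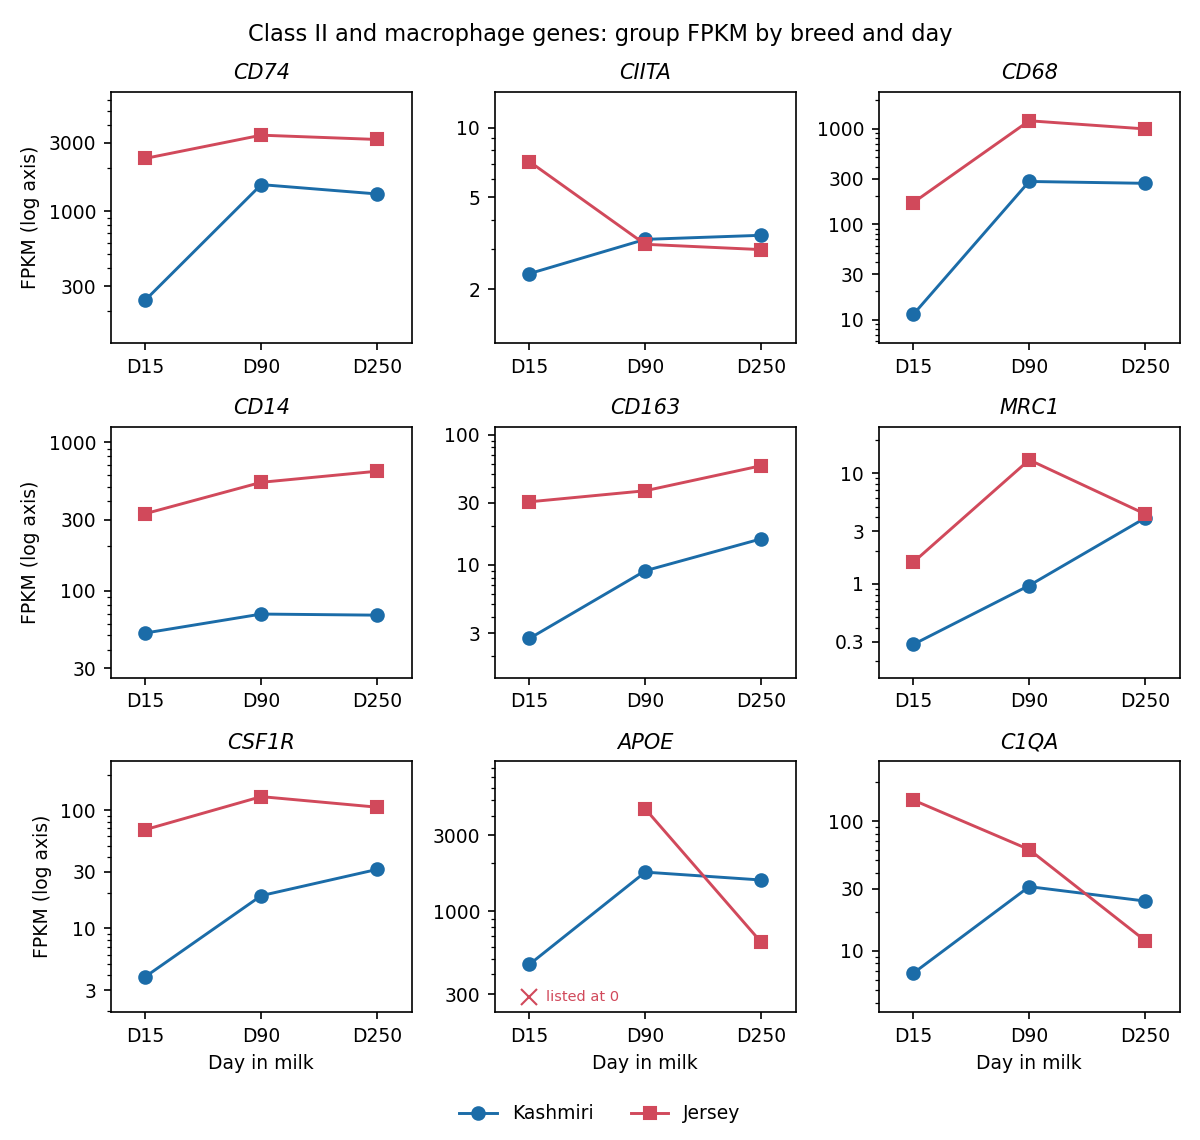
FPKM of the 9 genes found, on a log axis that differs between panels, by day in milk. Each point is the authors' 1 value for a group of breed and day, with no error, and the cross marks APOE listed at 0 in Jersey at D15. Kashmiri at D15 was the lowest group of the other 8 genes, and the Jersey line crosses below the Kashmiri line between D90 and D250 for APOE and C1QA.

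The order of the groups differed between the genes. Kashmiri at D15 was the lowest group for 8 genes, and for APOE it was the lowest of the groups not listed at 0. Jersey at D90 was the highest group for CD74, CD68, MRC1, CSF1R and APOE. Jersey at D250 was the highest for CD14 and CD163, and Jersey at D15 for CIITA and C1QA. From the lowest to the highest group, CIITA spanned 3.05-fold, CD14 12.3-fold, CD74 14.1-fold, CD163 21.2-fold, C1QA 21.6-fold, CSF1R 33.4-fold and MRC1 46.4-fold. Which neighbours in these orders differ beyond the spread between cows could not be assessed.

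For counts, 1 FPKM was added to each value and the log2 ratio taken, for genes with at least 1 FPKM in either group and no listed 0. A log2 ratio of 2 is called the 4-fold limit and a log2 ratio of 1 the 2-fold limit. At D15, all 8 genes with a ratio were higher in Jersey cows, 6 of them past the 4-fold limit, while 6.38% of 11163 named genes were past it in that direction. These were CD74, CD68, CD14, CD163, CSF1R and C1QA, and all 8 genes passed the 2-fold limit, compared with 15.8% of all genes. At D90, 8 of 9 genes were higher, 4 of them past the 4-fold limit (background 6.45% of 11145 genes) and 7 past the 2-fold limit (background 16.8%). CD68, CD14, MRC1 and CSF1R were the 4, with log2 ratios of 2.11, 2.93, 2.85 and 2.72.

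At D250, 6 of 9 genes were higher and 3 lower in Jersey cows. CD14 alone was past the 4-fold limit, at a log2 ratio of 3.20, where the background was 10.8% of 11589 genes. CD68 (1.89), CD163 (1.80), CSF1R (1.72) and CD74 (1.26) lay between the limits, making 5 genes past the 2-fold limit with a background of 22.7%. MRC1 (0.10) and CIITA (-0.16) were near 0, C1QA was at -0.95, and APOE at -1.30 was the only gene past the 2-fold limit in the lower direction (background 11.5%). The median log2 ratio of the genes for D15, D90 and D250 was 3.18, 1.93 and 1.26, beside -0.13, -0.03 and -0.10 for all named genes. Since the list was picked for these ratios, nothing is read from the counts against their backgrounds.

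**Figure D2:**
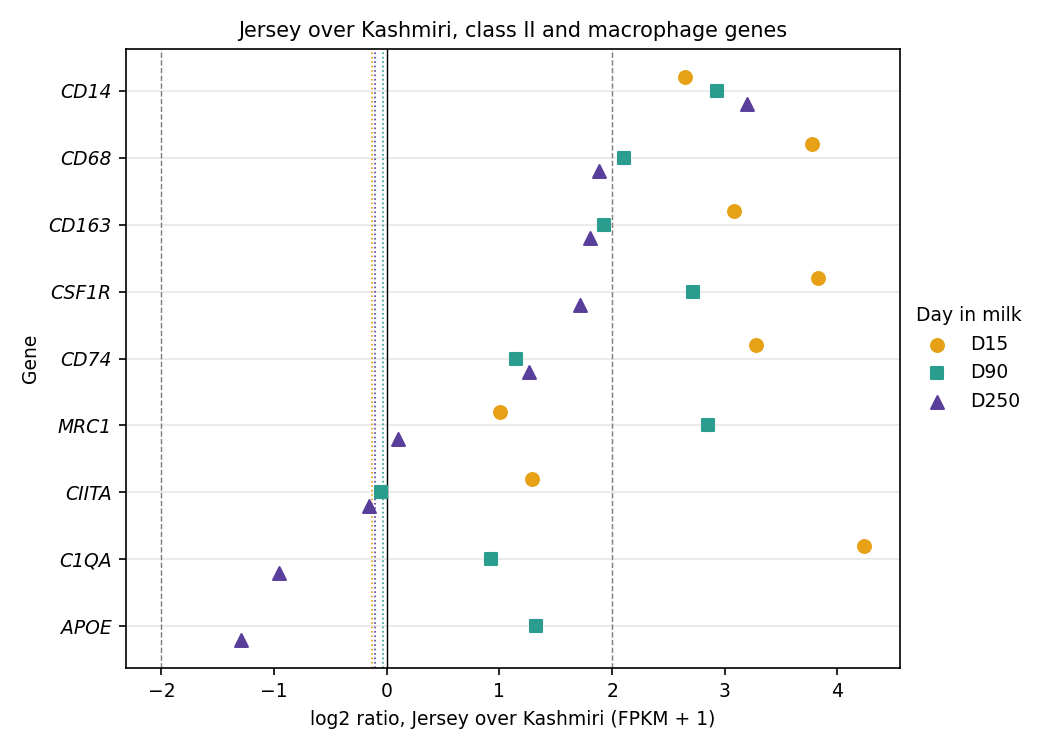
Log2 ratio of Jersey over Kashmiri, with 1 FPKM added to each value, for the 9 genes at D15 (circles), D90 (squares) and D250 (triangles). The dashed lines are the 4-fold limits and the dotted lines the median of all named genes on each day. At D250, CD14 lies at 3.20, and CIITA, C1QA and APOE lie below 0.

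Between D15 and D90 in Kashmiri cows, all 8 genes with at least 1 FPKM were higher at D90, since MRC1 was under it on both days. CD68 (24.6-fold), CD74 (6.38-fold), CSF1R (4.85-fold) and C1QA (4.64-fold) made up the 4 past the 4-fold limit on the log2 scale, with a background of 2.23% of 11238 genes. APOE was 3.81-fold, CD163 3.31-fold, CIITA 1.41-fold and CD14 1.34-fold the D15 level. The median log2 ratio was 1.98, beside -0.01 for all named genes.

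Between D90 and D250 in Kashmiri cows the levels were close, with 4 genes higher, 5 lower and none past the 4-fold limit (background 0.738% higher and 1.02% lower). MRC1 at 4.06-fold had the largest ratio, followed by CD163 at 1.76-fold and CSF1R at 1.67-fold, while CD74, CD68, CD14, APOE and C1QA were between 0.774-fold and 0.983-fold. The median was -0.02, and 0.03 over all genes. From D15 to D250, all 9 genes were higher in Kashmiri cows, 4 of them past the 4-fold limit (background 1.74%), and the median log2 ratio was 1.94 beside -0.04. Those 4 were CD68 at 23.5-fold, CSF1R at 8.08-fold, CD163 at 5.81-fold and CD74 at 5.49-fold. MRC1 was at 13.8-fold from 0.285 FPKM, and its log2 ratio of 1.94 became 3.39 with 0.1 FPKM added in place of 1.

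In Jersey cows, 6 of the 8 genes with a ratio were higher at D90 than at D15 and 2 were lower. CD68 (7.16-fold) and MRC1 (8.40-fold) were past the 4-fold limit (background 2.79% of 11022 genes). CSF1R was 1.90-fold, CD14 1.63-fold, CD74 1.45-fold and CD163 1.22-fold the D15 level, while CIITA was 0.438-fold and C1QA 0.416-fold. The median log2 ratio was 0.62 beside -0.07 for all genes.

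From D90 to D250 in Jersey cows, 7 of the 9 genes were lower and 2, CD14 (1.19-fold) and CD163 (1.56-fold), were higher. APOE at 0.145-fold and C1QA at 0.199-fold were past the 4-fold limit in the lower direction (background 0.275% of 10901 genes), and MRC1 was at 0.325-fold. CD74, CD68, CSF1R and CIITA were between 0.814-fold and 0.949-fold, and the median log2 ratio was -0.28 beside 0.15. From D15 to D250, C1QA was 12.1-fold lower (background 3.23% lower) and CIITA 2.40-fold lower, while CD68 was 5.89-fold higher (background 9.06% higher). MRC1 was 2.73-fold, CD14 1.93-fold, CD163 1.89-fold, CSF1R 1.55-fold and CD74 1.35-fold the D15 level, with a median of 0.76 beside 0.07. The comparisons of a breed share groups with each other and with the breed comparisons, so they are not separate evidence.

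The scale of the 6 groups was not equal, with sums over all entries from 533249 (Kashmiri, D250) to 1023150 (Kashmiri, D15). Setting these sums equal, without the milk protein genes, moved the median of all genes for Jersey over Kashmiri from -0.13 to 0.24 at D15, from -0.03 to 0.27 at D90 and from -0.10 to -0.75 at D250. With equal sums CIITA at D90 was at 0.21 and MRC1 at D250 at -0.54, so their directions flipped, while the other ratios between breeds kept their sign on all 3 days. In Kashmiri cows between D90 and D250, CD74, CD68, CD14, APOE and C1QA turned from lower to higher with equal sums, and in Jersey cows CD14 between D90 and D250 turned from higher to lower.

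Ratios between genes of the same group do not depend on this scale. For each FPKM of CD68 there were 0.590, 0.111 and 0.0902 FPKM of C1QA in Kashmiri cows at D15, D90 and D250, and 0.859, 0.0498 and 0.0121 FPKM in Jersey cows. C1QA over CD68 was thus above the Kashmiri value in Jersey at D15 and below it at D90 and D250. CD163 over CD68 was close between breeds on each day, at 0.239 and 0.181 at D15, 0.0322 and 0.0307 at D90, and 0.0591 and 0.0580 at D250, Kashmiri first. CD14 over CD68 was 4.54 and 1.95 at D15, 0.248 and 0.443 at D90, and 0.254 and 0.639 at D250, so the order of the breeds was turned after D15. CSF1R over CD68 was 0.342 and 0.405 at D15, 0.0674 and 0.108 at D90, and 0.117 and 0.106 at D250. MRC1 over CD68 was 0.0249 and 0.00930 at D15, 0.00345 and 0.0109 at D90, and 0.0146 and 0.00431 at D250. D15, the day on which CD68 was lowest, held the highest value of these ratios in both breeds except for MRC1 in Jersey, which was highest at D90.

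The class II chains form the peptide-binding molecules that CD74 accompanies. BoLA DR-ALPHA, named for the alpha chain of the DR molecule, had 72.7, 342 and 405 FPKM in Kashmiri cows and 714, 1226 and 1351 FPKM in Jersey cows. The ratio between breeds was 9.82, 3.58 and 3.34, and CD74 was 2.34 to 4.48 times its FPKM in all 6 groups. BOLA-DRB3, a DR beta chain, had 125 to 234 FPKM in Kashmiri cows and 482 to 892 FPKM in Jersey cows, and was 7.14-fold, 2.06-fold and 2.34-fold higher in Jersey. LA-DQB, named for a DQ beta chain, was at 46.4, 66.1 and 125 FPKM in Kashmiri cows and at 1019.5, 657 and 441 FPKM in Jersey cows. Its ratio of 21.9, 9.94 and 3.52 was the largest among the chains on each day. Class II chains are close copies of one another and differ between animals, so how the reads were split between them is uncertain.

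HLA-DMA, named for a chain of the DM molecule that helps peptides load, was 6.09-fold, 1.30-fold and 2.10-fold higher in Jersey cows at D15, D90 and D250. HLA-DOA and HLA-DOB, named for chains of the DO molecule that restrains DM, had ratios of 4.62, 0.747 and 0.872 and of 2.57, 0.383 and 0.498. The DO chains were thus higher in Jersey at D15 and lower on both later days, beside a ratio of 3.05, 0.952 and 0.867 for CIITA. HLA-DOB over HLA-DMA was 0.432, 0.428 and 0.314 in Kashmiri cows and 0.182, 0.126 and 0.0746 in Jersey cows. Of the 6 chains, 4 were past the 4-fold limit at D15, 1 (LA-DQB) at D90 and 0 at D250. The background in the higher direction was 6.38%, 6.45% and 10.8% of all named genes on these days. The chains had median log2 ratios of 2.67, 0.70 and 1.13. The chain names other than BOLA-DRB3 were found by reading the table.

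**Figure D3:**
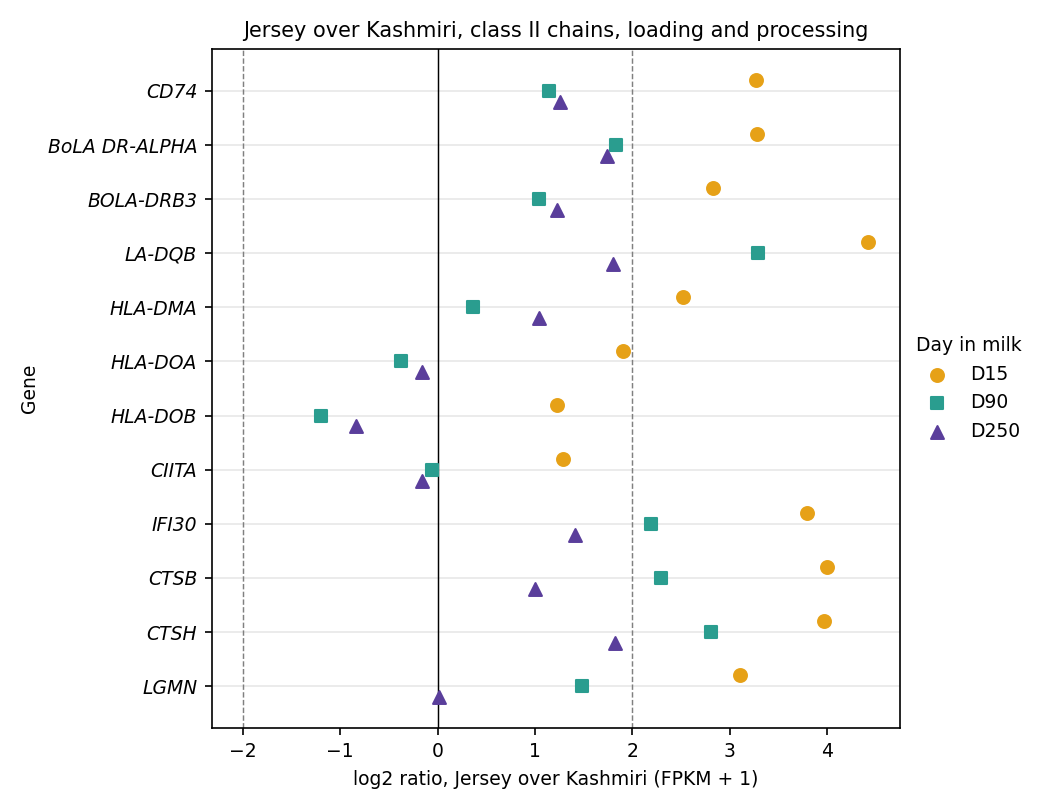
Log2 ratio of Jersey over Kashmiri, with 1 FPKM added, for CD74, the 6 other class II chains, CIITA and 4 genes of antigen processing at D15 (circles), D90 (squares) and D250 (triangles). The dashed lines are the 4-fold limits. CIITA, HLA-DOA and HLA-DOB lie above 0 at D15 and below 0 at D90 and D250, CIITA at D90 not so with equal sums (0.21).

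Genes of class II loading and processing, most of them endosomal proteases, were higher in Jersey cows for 8 of 8 found at D15 and 7 of 8 at D90 and D250 (5 of 8 at D250 with equal sums). Past the 4-fold limit were 5, 4 and 0 of them in the higher direction at D15, D90 and D250 (background 6.38%, 6.45% and 10.8%). Their median log2 ratios were 3.28, 1.85 and 1.12. Cathepsin B (CTSB) had 235, 909 and 1006 FPKM in Kashmiri cows and 3772, 4479 and 2019 FPKM in Jersey cows, ratios of 16.1, 4.93 and 2.01. Cathepsin H (CTSH) had ratios of 16.0, 7.05 and 3.56. Legumain (LGMN) had ratios of 8.75, 2.80 and 1.01, and IFI30, a thiol reductase for antigen, 14.5, 4.62 and 2.68. Cathepsin S, the main protease of the invariant chain, was found only in an entry joined with ARNT and CTSK, which is counted here, and its own level is not given.

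Genes that control class II transcription had smaller median ratios at D15 and D90 than the chains and enzymes did. Of 15 found, 2 at D15 and 6 at both D90 and D250 were past the 4-fold limit higher in Jersey cows. The background in that direction was 6.38%, 6.45% and 10.8% at D15, D90 and D250. In the lower direction, 1 (IFNG) was past it at D90 (background 4.98%). The medians of these 15 were 0.18, 0.37 and 1.14, and 0.58, 0.67 and 0.42 with equal sums, so the order of the days depended on the scale. All named genes had medians of 0.24, 0.27 and -0.75 with equal sums. SPI1 (PU.1), the myeloid transcription factor, had 13.9, 37.2 and 40.4 FPKM in Kashmiri cows and 211, 270.02 and 597 FPKM in Jersey cows, which is 15.1-fold, 7.26-fold and 14.8-fold. IRF1, an interferon-induced activator of CIITA, had ratios of 2.79, 5.01 and 12.04, and IFNGR1, a chain of the interferon gamma receptor, 7.48, 5.10 and 15.0. The kinase JAK2, which acts below that receptor, had 1.42, 5.62 and 16.9, JAK1 0.472, 1.03 and 2.69, and CREB1, which binds class II promoters, 2.43, 7.33 and 8.73. For the interferon itself, IFNG, the ratios were 0.277, 0.045 and 0.295. Of the subunits that bind class II promoters with CIITA, RFXANK had 1.14, 0.617 and 0.782, NFYA 1.10, 1.23 and 2.34, and NFYC 0.712, 0.740 and 0.881. IRF8 was at 2.36, 1.02 and 0.728, and IFNGR2, in an entry joined with SNORA20, at 1.72, 9.10 and 7.78.

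Of 24 further macrophage and monocyte markers found, 21 could be compared at D15 and all 21 were higher in Jersey cows, 15 of them past the 4-fold limit. At D90, 18 of 20 were higher and 6 were past the limit, and at D250, 11 of 20 were higher, 9 lower and 6 past the limit. All of those past the limit were higher in Jersey cows, where the background was 6.38%, 6.45% and 10.8% at D15, D90 and D250. The medians of these markers were 2.79, 1.12 and 0.42, beside -0.13, -0.03 and -0.10 for all named genes. At D250 their median was -0.28 with equal sums and -0.03 with the upper quartile scaling, beside -0.75 and -0.52 for all named genes. TYROBP, the adaptor of activating receptors on myeloid cells, had 99.6, 407 and 314 FPKM in Kashmiri cows and 2193, 3060.1 and 2286 FPKM in Jersey cows, so it was 22.0-fold, 7.51-fold and 7.27-fold. SPP1, osteopontin, was listed at 0 in Jersey at D90 and Kashmiri at D250 and had 224 to 4072 FPKM in the other groups. FCER1G was found only in a joined entry and is not given.

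The other C1q chains had the pattern of C1QA. C1QB was 16.5-fold, 2.17-fold and 0.605-fold, and C1QC 19.1-fold, 2.09-fold and 0.458-fold in Jersey over Kashmiri at D15, D90 and D250. C1QA over C1QB lay between 1.08 and 1.48 in all 6 groups. VSIG4, a complement receptor of resident macrophages, had ratios of 17.5, 2.09 and 0.539, FOLR2, a folate receptor of tissue macrophages, 6.61, 1.17 and 0.527, and TIMD4, a receptor for dying cells, 4.95, 1.19 and 0.193. These genes were higher in Jersey at D15 and lower at D250, as was GPNMB (12.5, 3.31 and 0.435). The chemokine CCL2 (15.5, 18.8 and 9.95) was higher in Jersey on each day. C1QB, C1QC, VSIG4, FOLR2, TIMD4, GPNMB and CCL2, and IFI30 and IFNG above, were picked from their lists after their values were seen. MARCO, SIGLEC1 and MPEG1 were under 1 FPKM in every group.

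**Figure D4:**
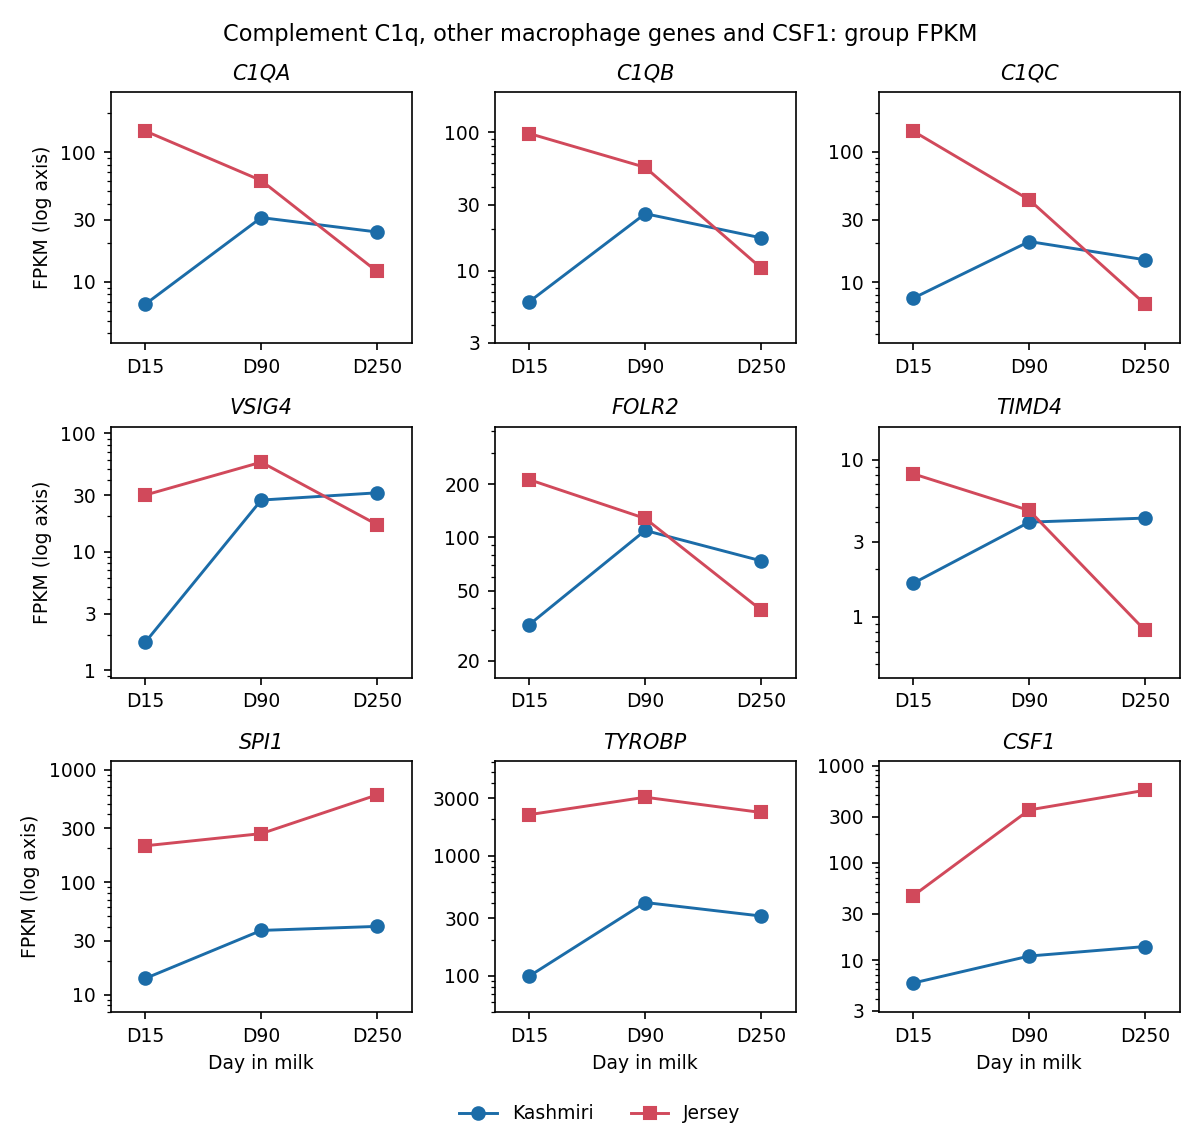
FPKM, on a log axis that differs between panels, of the 3 C1q chains, VSIG4, FOLR2, TIMD4, SPI1, TYROBP and CSF1 by day in milk; each point is 1 group value with no error. The first 6 genes are higher in Jersey at D15 and lower at D250, while SPI1, TYROBP and CSF1 are higher in Jersey on all 3 days.

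The ligands and co-receptors of these genes were also measured. CSF1, the ligand of CSF1R, had 5.80, 11.0 and 13.8 FPKM in Kashmiri cows and 46.1, 351 and 560.1 FPKM in Jersey cows. For D15, D90 and D250 its ratios were 7.94, 32.0 and 40.7, while that of CSF1R was 17.6, 6.89 and 3.36. TLR4, which signals with CD14, had 5.47, 9.45 and 20.7 FPKM in Kashmiri cows and 40.1, 143 and 337 FPKM in Jersey cows, ratios of 7.33, 15.2 and 16.2. The ratio of its partner LY96 was 1.14, 5.88 and 6.01, and that of LBP, which hands lipopolysaccharide to CD14, was 0.624, 0.136 and 0.238.

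HMOX1, which breaks down the haem taken up through CD163, was 9.83-fold, 3.05-fold and 1.57-fold in Jersey cows. LRP1, a receptor for APOE, was 16.8-fold, 4.62-fold and 2.34-fold. MIF, a ligand of CD74, was 1.05-fold, 2.09-fold and 0.574-fold. HMOX1 at D250 was lower in Jersey cows with equal sums, and MIF at D15 was lower with the upper quartile scaling. Of the 11 partners found, 10, 9 and 9 could be compared at D15, D90 and D250. Their median log2 ratios were 1.17, 2.09 and 1.19. With equal sums the median at D250 was 0.15, beside -0.75 for all named genes. At D250, 6 partners were higher and 3 lower in Jersey cows as deposited, and 5 and 5 with equal sums. Past the 4-fold limit in the higher direction were 5, 5 and 3 of them (background 6.38%, 6.45% and 10.8%).

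By the root mean square difference of log2(FPKM + 1), centred over the 6 groups, the profiles nearest to CD74 among 7117 genes that reached 10 FPKM in a group were GPR137B (0.22), BoLA DR-ALPHA (0.28), PPT1 (0.29), a joined entry of CLEC4A and CLEC6A (0.30) and ENSBTAG00000019348 (0.33). Those nearest to CD163 were ADRBK2 (0.14), SLC6A6 (0.25), WDFY4 (0.25), ANXA1 (0.26) and PAM (0.27). Among the 9 genes themselves, CD163 and CSF1R were nearest to each other (0.41), followed by CD74 and CD163 (0.47) and CD74 and CSF1R (0.52).

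CD14 is also carried by neutrophils, and the summed FPKM of 8 neutrophil markers was 181, 485 and 594 in Kashmiri cows and 4741, 5362 and 13777 in Jersey cows. In the higher direction, 7 of 8, 7 of 7 and 7 of 8 of these markers were past the 4-fold limit at D15, D90 and D250. The background was 6.38%, 6.45% and 10.8%, and the medians of the markers were 3.21, 3.90 and 4.80. S100A8 had 36.4 to 106 FPKM in Kashmiri cows and 1276 to 3034 FPKM in Jersey cows, S100A9 26.2 to 107 and 994 to 2965, and S100A12 39.0 to 294 and 1615 to 4014. CD14 over S100A8 was 1.42, 0.935 and 0.645 in Kashmiri cows and 0.200, 0.420 and 0.210 in Jersey cows. The part of neutrophils in the CD14 values was not tested.

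The summed FPKM of CD68, CD14, CD163, MRC1, CSF1R and C1QA was 76.9, 410.3 and 412 in Kashmiri cows and 744, 1987 and 1812 in Jersey cows. With APOE added, Jersey over Kashmiri the ratio of the sums was 2.94 at D90 and 1.23 at D250. At D250 that ratio was 0.717 with equal sums and 0.873 with the upper quartile scaling. T and NK cell markers were lower in Jersey, with sums of 411, 1622 and 406 in Kashmiri cows and 321, 236 and 175 in Jersey cows over 12 genes, and median log2 ratios of -0.12, -2.85 and -1.60. With equal sums the median at D15 was 0.19 (0.24 for all named genes) and the ratio of the summed markers 1.04, so the direction at D15 depended on the scale. CD3E, CD3D and NKG7 were the most abundant. CD3E had 135 to 659 FPKM in Kashmiri cows and 19.5 to 65.5 FPKM in Jersey cows, and CD3D 42.1 to 198 and 11.5 to 32.3 FPKM. NKG7 had 25.4, 109 and 35.4 FPKM in Kashmiri cows and 63.3, 71.0 and 22.9 FPKM in Jersey cows, so it was higher in Jersey at D15. IL7R, named after its values were seen, was also higher in Jersey at D15 (1.46-fold) and D250 (1.79-fold). B cells also carry class II, CD74, HLA-DOA and HLA-DOB, and the 8 B cell markers summed to 17.2, 80.4 and 32.4 in Kashmiri cows and to 30.1, 17.1 and 9.85 in Jersey cows (medians 0.68, -1.57 and -1.01). CD79A had 8.03, 42.5 and 9.77 FPKM in Kashmiri cows and 6.93, 4.22 and 2.22 FPKM in Jersey cows. CD79B had 1.54 to 11.8 FPKM in Kashmiri cows and 1.78 to 5.81 FPKM in Jersey cows, and MS4A1 2.23 to 7.50 and 1.29 to 3.72 FPKM. Epithelial markers had medians of -0.92, -1.95 and -1.19, and the 3 pan-leukocyte genes of 1.26, -0.47 and 1.34. The part of these cells in the class II and macrophage values was not tested.

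**Figure D5:**
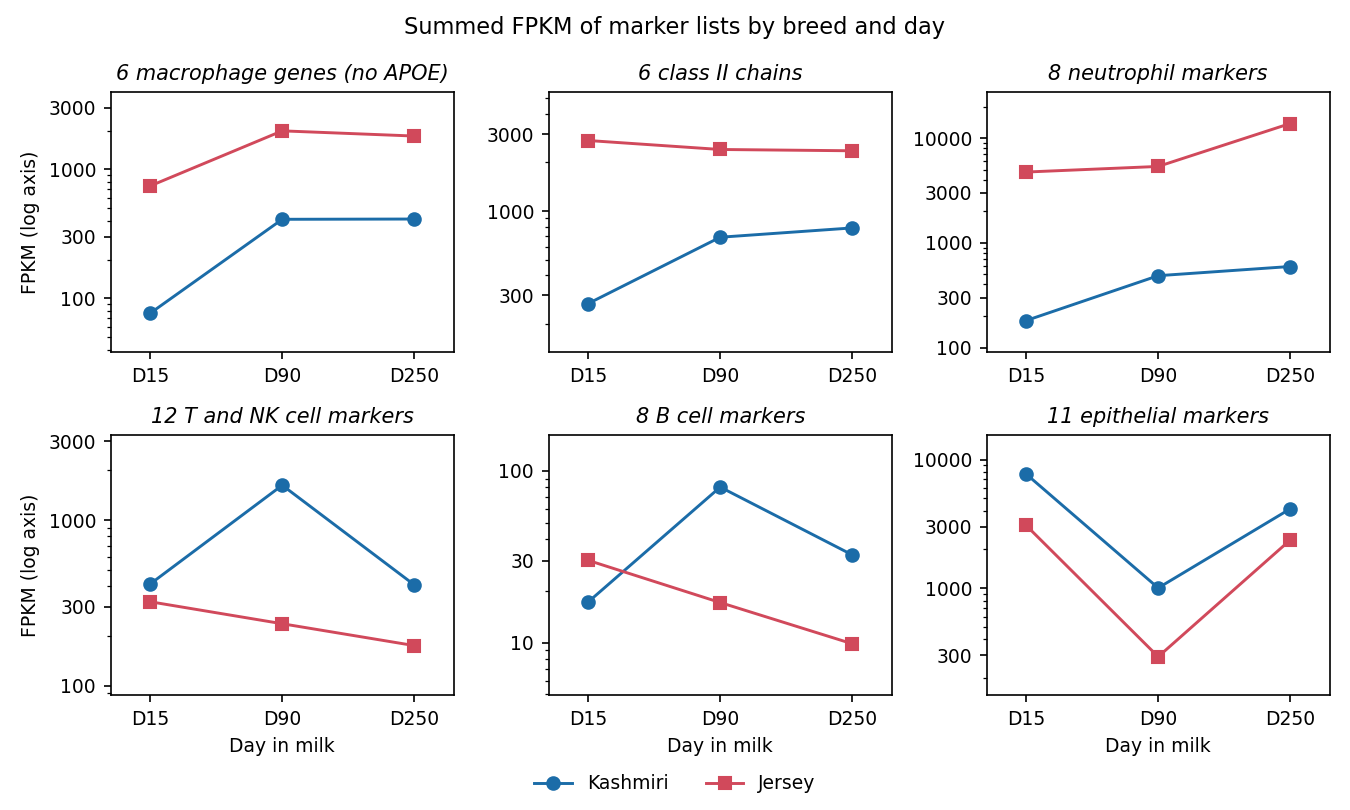
Summed FPKM, on a log axis that differs between panels, of 6 macrophage genes (all but APOE, which was listed at 0 in Jersey at D15), 6 class II chains, and markers of neutrophils, T and NK cells, B cells and epithelial cells, by day in milk; each point is 1 group with no error. Macrophage, class II and neutrophil sums are higher in Jersey on all 3 days. With APOE added, the macrophage sum at D250 is higher in Jersey only on the scale as deposited (1.23-fold). T and NK cell and epithelial sums are higher in Kashmiri on all 3 days, the T and NK cell sum at D15 only on the scale as deposited or by the upper quartile.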

How the data were processed

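RNA from milk cells captured with KRT18 antibody was sequenced from stranded mRNA libraries. Reads were trimmed by the authors (Trimmomatic) and mapped to the bovine assembly UMD3.1 using TopHat and Bowtie, given as Bowtie2 in the submitters' processing notes. Cufflinks and Cuffdiff then gave gene levels. The deposited values are FPKM, scaled by the authors to mapped fragments, with samples pooled into 1 value per breed and day. The column headed Local was taken as Kashmiri. These hold no replicate value and no read count behind a value, so no interval was computed and no test was run. The library read totals that the study gives were not used.

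The genes and all lists were chosen with earlier results of these data known. Where entries repeated a name, that of highest mean over the groups was taken. Log2 ratios had a pseudocount of 1 FPKM, which understates the ratios of low genes. They were taken for genes with at least 1 FPKM in either group and no listed 0. Plain folds had no pseudocount. Genes past a limit had an absolute log2 ratio of at least 2 (4-fold) or 1 (2-fold), over named genes. Other genes named were the 3 with the highest mean FPKM of each list, transcription and partner genes reaching 10 FPKM in a group, and the 5 nearest profiles. Further names are given as chosen after their values were seen or complete a list. Alternatives were a pseudocount of 0.1 FPKM, equal sums, the upper quartile, summed entries, no low limit and the 2-fold limit. Genes at 0 kept and BoLA DR-ALPHA counted were added after the data were seen. The code was tested on simulated data and ran in Python 3.11.15 with pandas 2.3.3, numpy 2.4.6 and, for plots, matplotlib 3.10.9. Some genes of the lists are not reported here.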

Additional observations from a re-analysis of the deposited data

How the results depend on the processing

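Of 462 log2 ratios of single genes under the alternatives, 428 kept their sign and stayed within 0.58 of the value above, 22 moved further and 12 changed sign. The figures for the medians of the list were 58, 2 and 3 of 63, and 65 of 72 counts stayed within 1.5 times. Of the 462 ratios, the 77 under each of summed entries, no low limit and genes at 0 kept could not change. Each gene found had 1 entry, and the other settings named only add genes without a ratio above. Summed entries could change no median or count either. Equal sums gave 18 of the moves and 8 of the sign changes, the upper quartile 4 sign changes, and 0.1 FPKM 4 moves. With equal sums, the ratio changed sign for CIITA (0.21, Jersey over Kashmiri at D90), MRC1 (-0.54, at D250) and CD14 (-0.24, Jersey D250 over D90), and for Kashmiri D250 over D90 in CD74 (0.43), CD68 (0.58), CD14 (0.62), APOE (0.48), C1QA (0.27) and the median (0.58). With equal sums, the median at D250 between breeds was 0.48 (-0.75 for all named genes) with 2 genes past the limit (CD14 higher and APOE lower). Kashmiri D250 over D15 then had a median of 2.73 (0.77 for all named genes) with 7 genes past it. The share of all genes past the limit was not computed with equal sums. With the upper quartile, MRC1 at D250 was at -0.30, CD14 in Jersey D250 over D90 at -0.011, and Kashmiri D250 over D90 at 0.038 for CD68, 0.077 for CD14 and 0.077 for the median. That median was 0.010 with BoLA DR-ALPHA counted. At the 2-fold limit in either direction 7 genes passed between breeds at D90, 6 at D250, 1 in Kashmiri D250 over D90, 7 in Kashmiri D250 over D15 and 4 in Jersey D250 over D15, by construction of a lower limit. In the same order, all named genes past it were 1876 higher and 1749 lower of 11145, 2630 and 1334 of 11589, 1003 and 985 of 11379, 1262 and 1638 of 11434, and 2747 and 1991 of 11258. For the other changes the cause was not tested. No paired analysis was possible because each group has 1 pooled value, and leaving out a replicate gave no value for the same reason. The reads behind each group value were not used here, so no limit of detection was set for MRC1 or CIITA, the lowest genes.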

Other observations

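The costimulatory genes, whose products accompany class II in the activation of T cells, differed among themselves. CD40 had 3.09, 5.44 and 4.54 FPKM in Kashmiri cows at D15, D90 and D250 and 24.0, 159 and 66.7 FPKM in Jersey cows, which is 7.78-fold, 29.2-fold and 14.7-fold. CD80 was 3.58-fold, 4.16-fold and 15.7-fold in Jersey over Kashmiri, so its largest ratio was at D250. CD86 was 10.2-fold, 5.49-fold and 1.14-fold, with 24.4 FPKM in Kashmiri and 27.8 FPKM in Jersey at D250. The medians of the 3 log2 ratios were 2.61, 2.36 and 3.61. CD86 at D250 was lower in Jersey cows with equal sums and with the upper quartile scaling.

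Of 9 dendritic cell markers found, BATF3, a transcription factor of cross-presenting dendritic cells, had 7.14, 9.65 and 5.92 FPKM in Kashmiri cows and 92.9, 475 and 858 FPKM in Jersey cows. Its ratios were 13.0, 49.2 and 145. CCR7, the receptor that guides dendritic cells and T cells to lymph nodes, had ratios of 2.04, 1.12 and 0.726, and XCR1 was found only in a joined entry. The medians of the list were 2.26, 1.61 and 0.94. In Jersey cows 6 of 7, 7 of 8 and 6 of 8 markers compared were higher (5 of 8 at D250 with equal sums). CLEC9A, also a marker on this list, was under 1 FPKM in every group, and FLT3 reached 2.50 FPKM at most. IRF4 was lower in Jersey cows on each day, at 3.06, 7.69 and 3.14 FPKM against 4.15, 12.2 and 3.56 FPKM. CLEC9A, FLT3 and IRF4 were named after their values were seen. The part of dendritic cells in these values was not tested.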
